A study of Mus musculus with 12 samples.

Results

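Replication-dependent histone genes, which encode the core histones H2A, H2B, H3 and H4 and the linker histone H1, were measured in total RNA of hippocampal slices after chemical long-term potentiation (LTP). The members were the protein-coding genes of GENCODE release M21 whose symbols start with Hist1h, Hist2h or Hist3h, together with Hist4h4. Of 67 such genes, 64 were among the 41091 gene IDs of the count tables, and Hist2h2bb, Hist1h2bm and Hist1h2bh were not analysed here. The set held 6 H1, 18 H2A, 15 H2B, 12 H3 and 13 H4 genes. It was chosen by symbol and in part selected on a measured value, the higher level of Hist1h4a in LTP than in control slices at 3 hr. For this reason all values of LTP against control at 3 hr, and of the change of that effect from 1 hr, are given as a description. No p of a member is printed for them, and nothing is read from the number of members past a threshold.

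All slices came from wild-type C57BL/6 mice, males of 2 to 3 months per the study's methods, and had the dentate gyrus cut away. LTP slices received 50 uM forskolin, which raises cAMP, for 5 min and then, up to 10 min in all, forskolin in a solution raised to 30 mM KCl and 10 mM calcium. Over the same 10 min control slices were kept in the vehicle, DMSO at 0.2%. Slices were frozen 1 hr or 3 hr later, which gave a control and an LTP group of 3 libraries at each time (4 groups). Each animal gave 1 control and 1 LTP library. The animals of both time points were treated as distinct, so time and animal cannot be told apart. A library pools all cell types of a slice, and in such bulk samples fewer cells of a type and less RNA per cell cannot be told apart.

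Library totals lay between 37118382 and 50815001 counts, and members held 0.0307 to 0.0413% of them. The floor of 3 counts corresponded to 0.0584 to 0.0791 CPM (counts relative to a library's scaled total). The study set 1 hr control replicate 2 aside because it stood apart in its clustering. It was therefore kept out of the main fits, which left 2 libraries in the 1 hr control group. Markers of CA pyramidal neurons summed to between 2610 and 4060 CPM, and those of dentate granule neurons to between 167 and 306 CPM.

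Replication-dependent histone genes are known for their expression in S phase, when newly made DNA has to be packed into nucleosomes. They lie in clusters of many near-identical copies, most lack introns, and their mRNAs usually end in a conserved stem-loop in place of a poly(A) tail. The stem-loop is bound by the stem-loop binding protein SLBP and positions the cut made by the endonuclease CPSF3 (CPSF-73) with the U7 small nuclear RNP, while NPAT drives transcription of the genes. In cells that have left the cell cycle, some members are also read as longer, polyadenylated mRNAs. The libraries of this study were made by ribosomal RNA depletion, which keeps RNAs without a poly(A) tail.

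The stem-loop was searched in the gene models of GENCODE M21 (build GRCm38), within 100 bases after the stop codon. It was present in 43 of 64 members and began 22 to 59 bases after the stop codon (median 33). The models of 12 members end at the stop codon and could not hold it. Of 8 sequence forms found, the most common was shared by 23 members of classes H1, H2A, H2B and H3, and a form of 7 members was seen in H4 genes alone. The form of Hist1h4a was found in no other member, and neither was that of Hist1h3g. The stem-loops of the following members are shown because the results turn on them or to show the forms, 5′ to 3′ as DNA, with the paired bases and the loop in capitals.

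Hist1h4a: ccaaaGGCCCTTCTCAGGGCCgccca
Hist1h4d: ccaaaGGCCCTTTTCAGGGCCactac
Hist1h4b: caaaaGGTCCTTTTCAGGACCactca
Hist1h3a: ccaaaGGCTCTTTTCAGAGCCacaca
Hist1h3g: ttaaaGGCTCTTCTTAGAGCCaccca
Hist1h3e: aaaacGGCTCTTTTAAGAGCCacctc
Hist3h2ba: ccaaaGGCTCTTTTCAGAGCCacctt
Hist2h2ac: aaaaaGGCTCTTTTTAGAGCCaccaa

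The promoter of Hist1h4a is shown because the set was chosen partly for this gene. RefSeq, which names it H4c1, places the window at chr13:23761250-23761499 of GRCm38.p6 on the minus strand, and the 250 bases before its start are printed 5′ to 3′ with capitals at each copy of TGACGTCA, the palindromic full cAMP response element. The copies began 98 and 34 bases before the start.

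Hist1h4a: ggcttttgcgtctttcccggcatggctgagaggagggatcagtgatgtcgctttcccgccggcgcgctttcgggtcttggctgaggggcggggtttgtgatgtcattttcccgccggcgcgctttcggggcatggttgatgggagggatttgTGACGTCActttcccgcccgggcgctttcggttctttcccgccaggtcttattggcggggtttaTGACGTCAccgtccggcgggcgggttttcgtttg

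Only 10 of 32851 RefSeq windows of this length (0.0304%) held 2 or more copies of TGACGTCA, and 508 (1.55%) held at least 1. Among 60 windows of 59 members that could be matched, 4 held it (6.67%): those of Hist1h4a, Hist1h4h (70 bases before the start), Hist1h2bj (96) and Hist1h2ag (160). The latter windows share 1 copy, since Hist1h2bj and Hist1h2ag are transcribed away from each other from a common promoter. The window of Hist1h2bj, chr13:22042948-22043197 on the plus strand, is given for comparison.

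Hist1h2bj: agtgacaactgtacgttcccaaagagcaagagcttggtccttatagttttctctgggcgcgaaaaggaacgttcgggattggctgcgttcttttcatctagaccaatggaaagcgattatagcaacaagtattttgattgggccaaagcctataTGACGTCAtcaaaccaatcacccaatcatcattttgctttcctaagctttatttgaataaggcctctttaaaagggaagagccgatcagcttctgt

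The Hist1h4a window also held 4 copies of TTTCCCGC, read on both strands, which 294 windows (0.895%) held at least once and 3 (0.00913%) held 2 or more times. No other member window had it. CCAAT was present in 81.7% of member windows and 33.8% of all windows, and TATAAA in 48.3% and 12.4%. Both motifs were counted on both strands, and Hist1h4a had 1 CCAAT and no TATAAA. The letters were picked after the Hist1h4a promoter had been read, and a match is a description of the sequence and not a site of binding. Windows were not matched for Hist1h2bc, Hist1h3a, Hist1h3f, Hist2h2be and Hist2h4.

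The level of members spanned a wide range in these slices. Per kilobase of exonic length (RPKM, mean of 11 libraries), the H4 genes Hist1h4d (43.1), Hist1h4h (42.8) and Hist1h4c (38.9) were highest, followed by the H2B gene Hist1h2bc (33.8). This order is one of means over groups that differ. In 3 hr controls Hist1h4h (48.7) was above Hist1h4d (44.3), and in 3 hr LTP slices Hist1h4h (46.3) and Hist1h4a (40.4) were above Hist1h4c (38.2) and Hist1h4d (37.3). Hist1h4a had a mean of 21 RPKM over 11 libraries and a range of 9.29 to 43.6. The linker histone genes Hist1h1c and Hist1h1e had 21.6 and 19.0 RPKM. In class H3, Hist1h3e (14.2), Hist1h3i (9.12) and Hist1h3f (5.47) led, and in class H2B Hist3h2ba (11.9) and Hist1h2bg (10.5) followed Hist1h2bc. The highest H2A genes, Hist2h2ac (6.74), Hist1h2ak (6.63) and Hist3h2a (6.09), were low in comparison, and the third H1 gene, Hist1h1a, had 6.35 RPKM. The order also depends on the length used, because coding-region reads alone entered the expression analysis of the study, and whether the counts of protein-coding genes are limited in this way is not given in the sources used here. Per kilobase of coding length Hist1h4d (157), Hist1h2bc (103), Hist1h4c (102) and Hist1h4h (64.4) were highest, and Hist1h4a had 36.3.

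**Figure D1:**
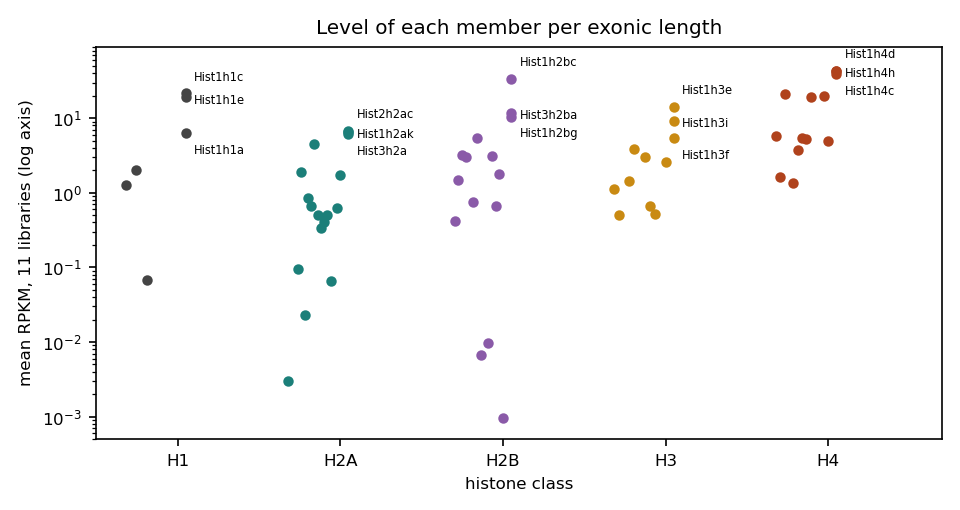
Mean level of each member over 11 libraries in RPKM (log axis), by histone class, with 1 point per member and the 3 highest of each class named. H4 genes reach 43.1 RPKM and H2A genes 6.74 RPKM, and members without any count are not drawn.

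Counts were concentrated in few genes. The 5 most counted members held 50.9% of all member counts and the top 10 held 69.4%. By class, H4 made up 39.9% of member CPM, H1 23.1%, H2B 21.5%, H3 8.57% and H2A 7.0%. At the low end, 54 members had a count in every library, and 2 (Hist1h2aa and Hist2h3c1) had none in any. The testis genes Hist1h1t, Hist1h2ba and Hist1h2aa had 35, 2 and 0 counts over 12 libraries. These 3 and Hist2h2aa1, Hist2h3c1, Hist1h2bq, Hist1h2ao, Hist1h2ap, Hist1h2br and Hist1h2ah entered no test, which left 54 tested members.

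Of the 54, 45 passed the filter on low counts in every comparison. The other 9 (Hist2h2aa2, Hist1h2bl, Hist1h2an, Hist1h2bk, Hist1h2ag, Hist1h2af, Hist1h2ad, Hist1h3c and Hist1h3b) did not pass it in the 1 hr libraries and entered the remaining fits through the 3 hr libraries. They had to be higher at 3 hr to enter, and counts between the time points are therefore led by the 45.

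Many member sequences cannot be told from one another by short reads. Of all 100-base windows of a member's gene model, a median of 37.8% over members occurred exactly in another annotated gene, and over 50% of the windows did so in 27 members. The models of Hist1h4d, Hist1h1a, Hist1h1b, Hist1h1t, Hist2h2be and Hist2h4 contained no copied window. For Hist1h4a the share was 31.8%, with copies in other H4 genes. Exons of 23 members, all 18 H2A genes among them, overlap another gene. How reads with several matches were counted, and whether strand was used, is not given in the sources used here, so values of these members are uncertain.

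Hist1h4a, a gene for the core histone H4, lies at chr13:23760692-23761230 of GRCm38 on the minus strand as a single exon. It had 5.01 and 5.90 CPM in 1 hr controls and 6.08 CPM in the library that was set aside. The 1 hr LTP libraries of animals 1, 2 and 3 had 6.44, 5.48 and 7.99 CPM, so that the groups overlapped. At 3 hr the controls had 8.72, 10.3 and 9.57 CPM, above every 1 hr library, and the LTP libraries had 21.3, 20.5 and 23.5 CPM, above all others. Behind these values stood 194 to 340 counts at 1 hr, 403 to 492 in 3 hr controls and 890 to 939 in 3 hr LTP libraries.

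LTP against control at 3 hr gave a log2 fold change of 1.21 (SE 0.091) for Hist1h4a, or 2.31-fold, with log2 ratios of 1.28, 0.99 and 1.29 in the 3 animals. The effect at 1 hr was 0.29 (SE 0.168) with an adjusted p of 0.842 (edgeR quasi-likelihood test), and it was 0.14 without LTP replicate 3, 0.18 without control replicate 1 and 0.42 without control replicate 3. In slices without LTP induction, the gene rose from 1 hr to 3 hr by 0.77 (SE 0.147, adjusted p = 0.00182, edgeR quasi-likelihood test), or 1.71-fold. This call held under all 20 alternatives, at 0.70 to 0.93, the fit with 1 hr control replicate 2 included. The 3 hr controls of this test also entered the contrast by which the gene was chosen.

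The members on either side of Hist1h4a were compared with it. Hist1h3a, an H3 gene whose start lies 1156 bases away on the same strand, had 1.06 and 1.07 CPM in 1 hr controls, 1.74 CPM in the set-aside library, and 2.09, 1.11 and 1.32 CPM in 1 hr LTP libraries. At 3 hr it had 2.01, 2.5 and 2.9 CPM in controls and 2.84, 3.03 and 3.01 CPM in LTP slices, where the groups overlapped. Hist1h3a rose with time in controls (log2 fold change 1.19, SE 0.254, adjusted p = 0.00358, edgeR quasi-likelihood test), and LTP against control was 0.27 at 3 hr.

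Hist1h1a, a linker histone gene on the plus strand 2436 bases from the start of Hist1h4a, followed another course. It had 5.99 and 5.47 CPM in 1 hr controls (4.45 in the set-aside library) and 5.27, 3.37 and 4.73 CPM in 1 hr LTP slices. The 3 hr controls had 4.09, 3.51 and 3.78 CPM, and the 3 hr LTP libraries 5.18, 5.54 and 4.85 CPM. Hist1h1a fell in controls between the time points by 0.62 on the log2 scale (SE 0.161, adjusted p = 0.0101, edgeR quasi-likelihood test), and all 3 hr controls lay below the fitted 1 hr controls. The LTP libraries lay above the controls at 3 hr (log2 fold change 0.47, SE 0.11).

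The H4 gene Hist1h4b, 4217 bases away on the other side, had overlapping 3 hr groups. Its LTP libraries at 3 hr had 2.45, 2.31 and 3.01 CPM and its controls 3.11, 2.96 and 3.37 CPM, a log2 fold change of -0.27. Hist1h4b rose with time in controls (0.75, SE 0.262, adjusted p = 0.0435, edgeR quasi-likelihood test) and in LTP slices (0.87, SE 0.242, adjusted p = 0.013).

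**Figure D2:**
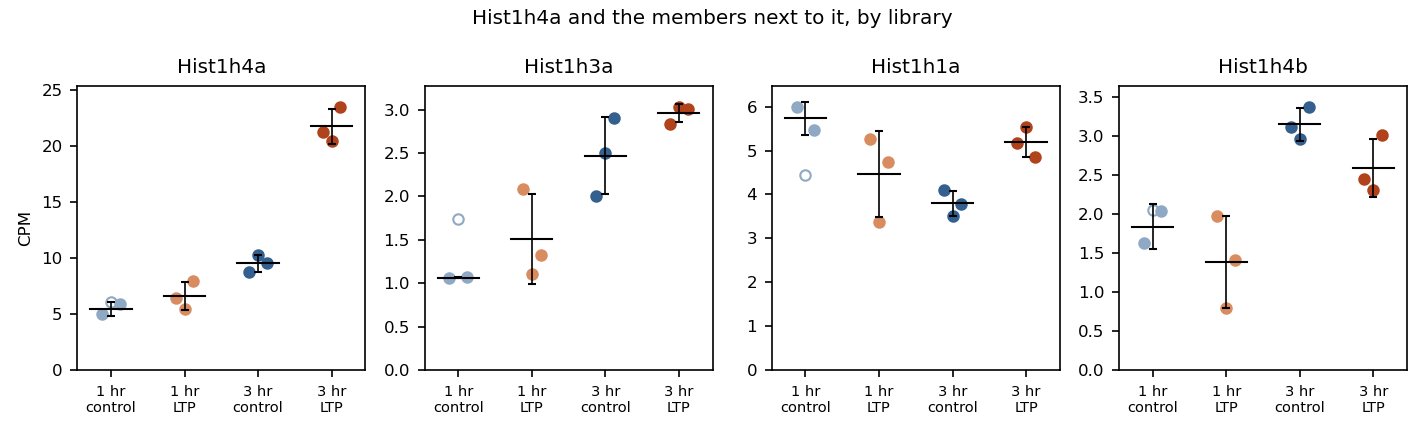
CPM of Hist1h4a and 3 adjacent members in each library, by group. Points are libraries, lines and bars are mean and SD, and the open point is 1 hr control replicate 2, which was kept out of the mean. Hist1h4a reaches 20.5 to 23.5 CPM in 3 hr LTP libraries, and the 3 hr groups of Hist1h4b overlap.

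The 1 hr slices were examined for early effects of LTP. None of the 45 tested members was called (edgeR quasi-likelihood test, adjusted p under 0.1 and fold change over 1.2), beside 0.789% of all genes tested. The count was also 0 with DESeq2, with limma-voom and with 1 hr control replicate 2 included. An unadjusted p under 0.05 was found for 2 members, and 18 members lay above and 27 below a log2 fold change of 0, with a median of -0.09 against 0.00 for all genes.

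The 5 smallest p belonged to Hist1h4d, Hist1h3g, Hist1h1d, Hist1h1c and Hist1h1a, and each was lower in LTP slices. Hist1h4d, the H4 gene with the highest level, had 63.3 and 53.3 CPM in controls (61.4 in the set-aside library) and 48.1, 42.8 and 53.2 CPM after LTP, with a log2 fold change of -0.27 (SE 0.0979, adjusted p = 0.542, edgeR quasi-likelihood test). The groups did not overlap, but the highest LTP library lay just under the lower control. Hist1h3g had 0.646 and 0.545 CPM in controls and 0.267, 0.132 and 0.423 CPM after LTP (-1.08, SE 0.48, adjusted p = 0.723), and its set-aside control, at 0.372 CPM, lay within the LTP values. Its log2 fold change was -0.77 to -1.53 when 1 library was left out. Without 1 hr LTP replicate 3, 1 member was called, Hist1h4d, beside 1.97% of all genes. The log2 fold change of Hist1h4d lay between -0.14 (without control replicate 1) and -0.39 (without control replicate 3) when 1 library was left out.

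At 3 hr the effect of LTP on most members had the opposite sign to that on Hist1h4a. Of the 45 members tested in every comparison 36 were lower and 9 higher in LTP slices, with a median log2 fold change of -0.15. The median over all genes was 0.00, and 49.5% of them lay above 0. The 9 members that entered through the 3 hr libraries were all lower, and as their mean counts there were higher in controls, the filter bears on this direction and they are left out of the counts by class and animal. Past the thresholds were 3 members, Hist1h4a and Hist1h1a on the higher side and Hist3h2ba on the lower, which is 5.56% of the 54. Over all genes 6.6% passed, 5.07% higher and 1.53% lower, and nothing is read from this count because the set was chosen with this contrast in view. With animal as a block 7 members passed (2 higher, 5 lower), and 13 (2 higher, 11 lower) with offsets for GC content and length added to the block. Of all genes 9.49% and 9.81% passed in these fits.

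Hist3h2ba, an H2B gene on chromosome 11, had 10.5, 9.82 and 9.53 CPM in 3 hr controls and 7.88, 6.90 and 8.28 CPM in LTP slices, without overlap (log2 fold change -0.36, SE 0.0962). Of the 45, all 10 H2B genes and 6 of 8 H2A genes lay below 0, as did 6 of 9 H3, 10 of 13 H4 and 4 of 5 H1 genes. Below control in all 3 animals were 23 members, and 5 were above it in all 3. The 5 were Hist1h4a, Hist1h3a, Hist1h1a and, on chromosome 3, Hist2h3c2 (1.39-fold) and Hist2h4 (1.17-fold, 3 hr groups without overlap). How many of all genes do so was not determined, and nothing is read from these counts. The median log2 ratio of the 45 was -0.07, -0.23 and -0.28 in animals 1, 2 and 3, beside -0.03, -0.02 and -0.02 for all genes with at least 10 counts.

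**Figure D3:**
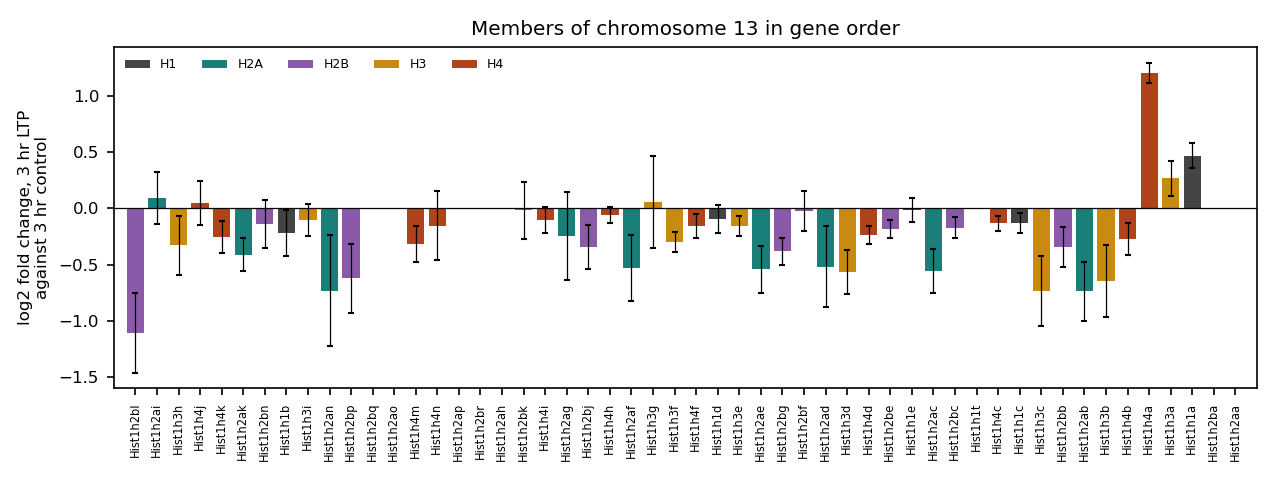
Log2 fold change of LTP against control at 3 hr for the members of chromosome 13 in gene order (bars coloured by class, error bars are SE, a gap marks an untested member). Hist1h4a, Hist1h3a and Hist1h1a stand next to each other above 0, at 1.21, 0.27 and 0.47, while most other members of chromosome 13 lie below it. Other chromosomes are not drawn, and Hist2h3c2 (1.39-fold) and Hist2h4 (1.17-fold) of chromosome 3 were higher too.

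The members of chromosome 13 span 2.22 Mb (chr13:21715763-23934851) and number 52. Hist1h4a, Hist1h3a and Hist1h1a are in places 48 to 50 of the order, and only the untested Hist1h2ba and Hist1h2aa follow, with starts at least 172926 bases from that of Hist1h4a. For the 4 members before them, log2 fold changes at 3 hr were -0.34 (Hist1h2bb), -0.74 (Hist1h2ab), -0.65 (Hist1h3b) and -0.27 (Hist1h4b).

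Summed over a class, H2B members had 86.7, 90.2 and 84.4 CPM in 3 hr controls and 74.9, 78.7 and 69.7 CPM in LTP slices. H2A members had 27.6, 27.4 and 28.4 CPM in controls and 25.6, 24.7 and 23.9 CPM in LTP slices. In both classes the 3 hr groups did not overlap and the LTP libraries were lower, while at 1 hr the sums of both classes overlapped. Of all single genes tested, 27% had 3 hr groups without overlap, and 22.6% had 1 hr groups without overlap. Separate 3 hr groups were therefore common, and the class sums were not tested. The H4 sums, to which Hist1h4a contributes, were 153, 162 and 165 CPM in 3 hr controls and 159, 157 and 152 CPM in LTP slices.

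**Figure D4:**
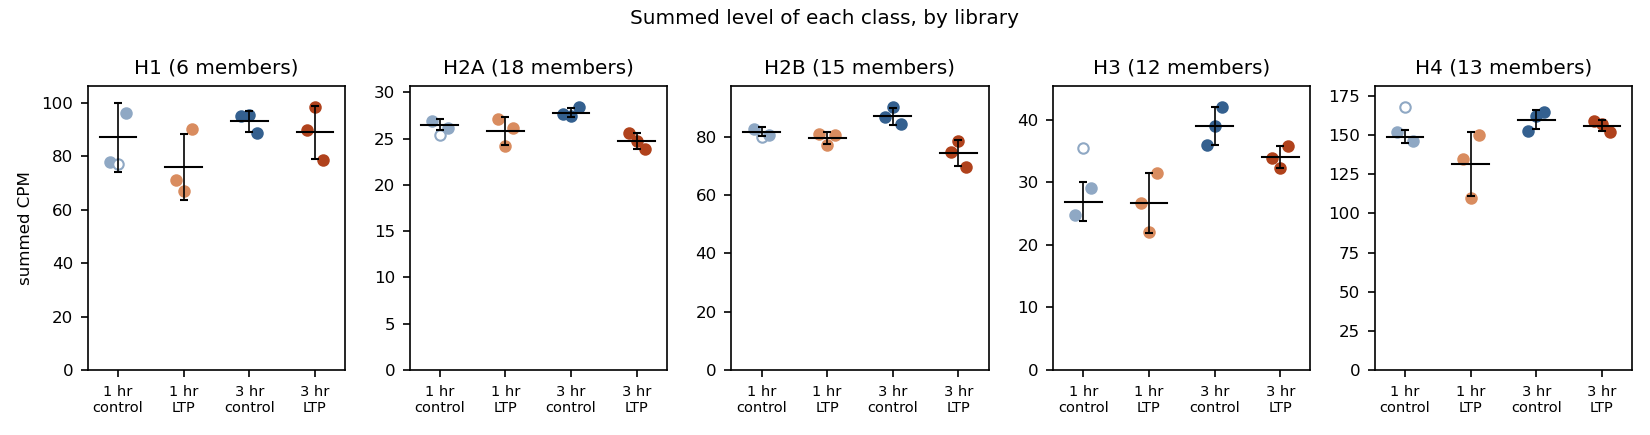
Summed CPM of the members of each class in every library, by group, with mean and SD. The open point is 1 hr control replicate 2, outside the mean. H2A and H2B are lower in 3 hr LTP libraries (23.9 to 25.6 and 69.7 to 78.7 CPM) than in 3 hr controls (27.4 to 28.4 and 84.4 to 90.2 CPM).

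H3 members summed to 35.9, 39.0 and 42.0 CPM in 3 hr controls and to 33.9, 32.3 and 35.8 CPM in LTP slices, and the LTP libraries were again below, by a narrow gap. H1 members overlapped, with 95.2, 95.6 and 88.6 CPM in controls and 89.8, 98.5 and 78.6 CPM in LTP slices. The sum of all members but Hist1h4a was 389 to 404 CPM in 3 hr controls and 336 to 370 CPM in 3 hr LTP libraries.

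The change of the LTP effect from 1 hr to 3 hr contains the 3 hr contrast, and its counts are given for completeness. The number of members past an adjusted p of 0.1 was 0 with edgeR (3 at an unadjusted p under 0.05), 1 with DESeq2 and 0 with limma-voom. Of all genes 0.0592%, 0.312% and 0.0538% were called in these fits, and nothing is read from the counts. The change was 0.92 for Hist1h4a, 0.82 for Hist1h1a and -2.23 for Hist1h2bl on the log2 scale. The value of Hist1h2bl, an H2B gene, rests on few counts, with at most 0.584 CPM in any library.

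The controls of the time points were compared to measure what differed without LTP induction. Most called members rose between 1 hr and 3 hr. Among the 45 members tested in every comparison, 21 rose and 3 fell (edgeR quasi-likelihood test, adjusted p under 0.1, fold change over 1.2), with a median log2 fold change of 0.42. This is 53.3% called and 46.7% higher. Of all genes tested in every comparison 33.6% were called and 16.6% were higher. With the 9 members that passed through the 3 hr libraries, 31 of 54 were called (28 higher, 3 lower), where 32.8% of all genes were called, 16.1% higher and 16.8% lower. The 3 hr and the fitted 1 hr controls did not overlap in 35 of the 45 members (77.8%), against 62.0% of genes tested in every comparison.

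An H4 and an H3 gene gave the 2 largest rises among the 45. Hist1h4m had 0.852 and 0.853 CPM in the fitted 1 hr controls and 2.98, 4.27 and 3.42 CPM in 3 hr controls. All 3 hr controls exceeded the 1 hr controls, the log2 fold change was 2.03 (SE 0.219, adjusted p = 6.51e-05, edgeR quasi-likelihood test) and the level rose 4.08-fold. The set-aside 1 hr library had 2.34 CPM of Hist1h4m, between the groups, and with it in the fit the log2 fold change was 1.37. Hist1h3h, an H3 gene, rose from 0.258 and 0.261 CPM to 0.843, 0.893 and 1.30 CPM (1.93, SE 0.368, adjusted p = 0.00181), with 0.662 CPM in the set-aside library. Its value was 1.33 with that library in the fit and 1.24 with offsets for GC content and length.

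Hist1h4n rose from 0.801 and 0.805 CPM to 2.64, 1.59 and 2.94 CPM (log2 fold change 1.54, SE 0.34, adjusted p = 0.0043, edgeR quasi-likelihood test). Its set-aside value of 1.68 CPM lay above 1 of the 3 hr controls, and 80.7% of its windows are copied, also in Hist1h4m. The H3 gene Hist1h3i rose from 2.63 and 2.13 CPM to 3.96, 5.29 and 5.33 CPM (1.00, SE 0.256, adjusted p = 0.00966), with 3.17 CPM in the set-aside library. With offsets for GC content and length, Hist1h3i lost its call, at 0.35. Hist1h4h, with a higher level, went from 18.5 and 18.1 CPM to 22.2, 22.3 and 24.2 CPM (0.29, SE 0.101, adjusted p = 0.0391), with 21.9 CPM in the set-aside library. The other H4 genes called higher were Hist1h4a, Hist1h4b, Hist1h4i (0.42) and Hist1h4j (0.55), and the other H3 genes among the 45 were Hist1h3a and Hist1h3f (0.51). No H3 or H4 gene was called lower. Below 0 were 2 of each class, among them Hist1h4d (-0.24, adjusted p = 0.0914, edgeR quasi-likelihood test), which did not reach the fold threshold, and Hist1h3g (-0.95). The abundant Hist1h4d, Hist1h4c and Hist1h3e were not called.

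In class H2B, Hist1h2bn rose from 0.594 and 0.758 CPM to 1.6, 1.92 and 1.5 CPM (log2 fold change 1.27, SE 0.268, adjusted p = 0.00334, edgeR quasi-likelihood test), and its set-aside value was 1.34 CPM. Hist3h2ba rose from 5.37 and 6.49 CPM to 10.5, 9.82 and 9.53 CPM (0.71, SE 0.15, adjusted p = 0.00321), with 7.36 CPM in the set-aside library. Hist1h2bj (0.97) and Hist1h2bg (0.54) were the other H2B rises among the 45, and without 1 hr control replicate 1 or 3 the value of Hist1h2bg was 0.32 or 0.91. Hist1h2bc, the H2B gene with the highest level, was lower at 3 hr, with 48.6 and 41.1 CPM against 37.3, 38.3 and 37.5 CPM (-0.28, SE 0.0987, adjusted p = 0.0458) and 39.3 CPM in the set-aside library. This call held in only 3 of 20 alternatives, and with offsets for GC content and length the value was 0.08.

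Among H2A genes, Hist1h2ab rose from 0.620 and 0.450 CPM to 1.23, 1.26 and 2.24 CPM (log2 fold change 1.54, SE 0.388, adjusted p = 0.00913, edgeR quasi-likelihood test), and the set-aside library had 0.455 CPM. Hist1h2ae (0.97), Hist2h2ab (0.56) and Hist1h2ac (0.56) were also called higher, and without 1 hr control replicate 1 or 3 the value of Hist2h2ab was 0.31 or 0.99. Hist3h2a, which lies near Hist3h2ba on chromosome 11, fell from 15.2 and 15.4 CPM to 12.3, 10.7 and 10.2 CPM (-0.50, SE 0.109, adjusted p = 0.00409). The set-aside library had 12.3 CPM of Hist3h2a, as in the highest 3 hr control, and the call held in all 20 alternatives. Hist2h2ac and Hist1h2ak, the H2A genes with the highest mean RPKM by exonic length, were not called. By coding length Hist3h2a was above them (33.3, against 8.98 and 6.63).

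The linker histone genes were divided. Hist1h1c rose from 29.0 and 32.9 CPM to 40.7, 41.0 and 39.5 CPM (log2 fold change 0.36, SE 0.12, adjusted p = 0.0369, edgeR quasi-likelihood test), with 27.8 CPM in the set-aside library. Hist1h1b rose from 0.956 and 1.09 CPM to 1.88, 2.42 and 1.65 CPM (0.92, SE 0.25, adjusted p = 0.0135), with 1.01 CPM in that library. Hist1h1a fell, as given above. Hist1h1e had 33.4 and 44.6 CPM at 1 hr and 38.3, 38.1 and 33.7 CPM at 3 hr, with overlap, and was not called.

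Of the 9 members that entered through the 3 hr libraries, 7 passed the thresholds in controls, with log2 fold changes from 1.22 (Hist1h3b) to 2.67 (Hist1h3c), and the others were Hist1h2bk (2.17), Hist1h2an (2.16), Hist1h2bl (2.11), Hist1h2ad (1.62) and Hist1h2af (1.58). Their fitted 1 hr controls held 1 to 9 counts, and no rise is read from them because the filter favours it. Without 1 hr control replicate 1 or 3, the value was 4.15 or 1.36 for Hist1h2bk, 3.49 or 1.48 for Hist1h2an, 2.54 or 1.03 for Hist1h2af and 1.31 or 2.16 for Hist1h2ad.

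Several calls in controls depended on 1 library. Without 1 hr control replicate 1, those of Hist2h2ab, Hist1h2bg, Hist1h2ae, Hist1h3f, Hist1h4b, Hist1h4i, Hist1h4j, Hist1h1c and Hist1h2bc were lost, and without 1 hr control replicate 3 those of Hist1h2bj, Hist1h2ac, Hist1h4h, Hist1h4i and Hist1h4j. Omission of a 3 hr control ended calls of Hist1h4j (replicate 1 or 2), Hist2h2ab, Hist1h4i and Hist1h2ac (2 or 3), Hist1h2bg and Hist1h4b (3), and Hist1h2bc (any). The calls of Hist1h4a, Hist1h4m, Hist1h4n, Hist1h3h, Hist1h3a, Hist1h2bn, Hist3h2ba, Hist1h2ab, Hist1h1b, Hist3h2a and Hist1h1a held in every alternative in which they were tested.

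The same comparison was made in LTP slices, which share no library with the controls. Apart from 1 hr animal 2 they come from the same animals, so a difference between animals would enter both comparisons. Of the 45 members 17 rose and 2 fell, which is 42.2% called and 37.8% higher, with a median log2 fold change of 0.27. Among all genes tested in every comparison 36.6% were called and 19.2% were higher. Over all 54 members 20 rose and 2 fell, where 35.9% of all genes were called, 18.6% higher and 17.3% lower. In 20 of the 45 (44.4%) the 1 hr and 3 hr ranges were separate, near the 46.0% of genes tested in every comparison.

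Hist1h4m rose from 1.07, 0.738 and 0.893 CPM in 1 hr LTP slices to 2.77, 3.14 and 2.59 CPM at 3 hr, a log2 fold change of 1.63 (SE 0.191). Hist1h3h rose from 0.219, 0.105 and 0.141 CPM to 0.931, 0.593 and 0.897 CPM (2.33, SE 0.358, adjusted p = 0.000343, edgeR quasi-likelihood test), and for both genes every 3 hr library exceeded every 1 hr library. Hist1h4n (1.38), Hist1h2ab (1.21), Hist1h3a (0.95), Hist1h2bn (0.83), Hist1h3i (0.66), Hist3h2ba (0.52), Hist1h1b (0.51), Hist1h1c (0.46) and Hist1h4h (0.35) rose here as in the controls, and so did Hist1h4j (0.94), Hist1h4i (0.45) and Hist1h2bj (0.59). The calls of Hist1h1b and Hist1h2bj in LTP slices were lost in 7 of 20 alternatives each, and with offsets for GC content and length those of Hist1h3i (0.19, adjusted p = 0.473, edgeR quasi-likelihood test) and Hist1h2bn (0.52) were lost. Called here but not in controls was Hist2h3c2 (0.71, against 0.30 in controls). Of the 9 members that entered through the 3 hr libraries, Hist1h2bk (1.38), Hist1h3c (2.20) and Hist1h2ag (1.14) passed the thresholds. Hist1h2ag was not called in controls, and its call here was lost in 11 of 17 alternatives. Hist1h4a had a log2 fold change of 1.69 (SE 0.126), or 3.23-fold, which includes the 3 hr LTP libraries by which it was chosen.

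Of the 45 members, 16 rose in both comparisons, which rest largely on the same animals. This is 76.2% of the 21 rises in controls and 94.1% of the 17 in LTP slices. Without Hist1h4a the shares were 75% and 93.8%, and over all genes tested in every comparison 73.7% and 63.6%. Hist3h2a and Hist1h2bc were lower in both. Hist3h2a had 16.1, 15.4 and 14.6 CPM in 1 hr LTP slices and 12, 12.2 and 9.87 CPM at 3 hr (log2 fold change -0.45, SE 0.0985, adjusted p = 0.00317, edgeR quasi-likelihood test). For Hist1h2bc the values were 42.0, 44.6 and 41.0 CPM and 31.9, 37.9 and 29.6 CPM (-0.38, SE 0.0894, adjusted p = 0.00529), and with offsets for GC content and length the difference was 0.00. Hist1h1a, which fell in controls, was not called in LTP slices (0.20).

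**Figure D5:**
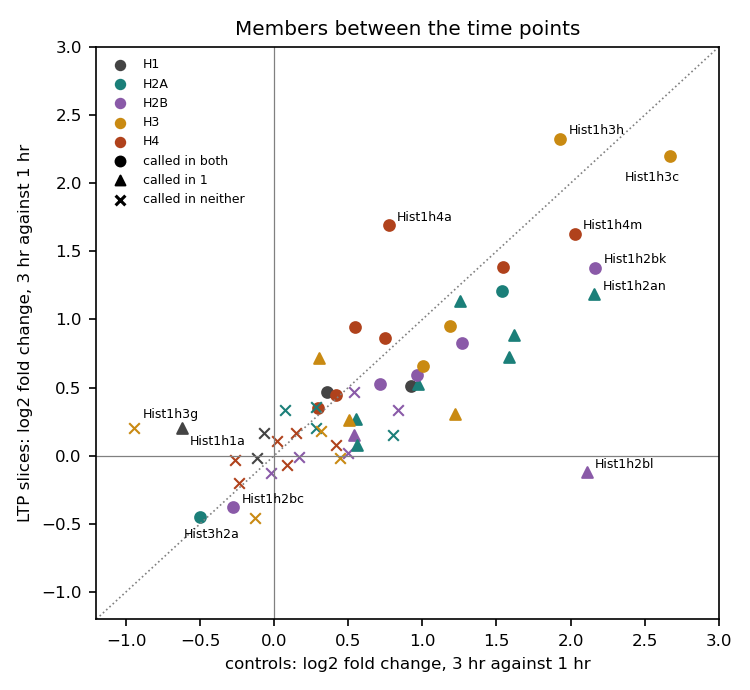
Log2 fold change of 3 hr against 1 hr in controls (horizontal) and in LTP slices (vertical) for the 54 tested members, coloured by class, with the marker showing in how many of the comparisons a member was called. The dotted line marks equal values. Hist1h4m (2.03 and 1.63) and Hist1h3h (1.93 and 2.33) are high in both, and Hist1h4a lies above the line at 0.77 and 1.69.

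With the library that was set aside in the fit, 25 of 54 members were called in controls (23 higher, 2 lower) and 22 in LTP slices, where 27.4% and 35.5% of all genes were called. The control calls of Hist2h2ab, Hist1h2bg, Hist1h3f, Hist1h4h, Hist1h4i, Hist1h4j, Hist1h2bl and Hist1h2bc were lost in that fit, and Hist1h2bp and Hist1h2ag were called in addition.

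H2A and H2B genes often stand in pairs that are transcribed away from each other, and 12 such pairs had starts 176 to 306 bases apart. In controls Hist1h2bn (log2 fold change 1.27) is paired with Hist1h2ak (0.28), which was not called, and Hist1h2ac (0.56) with Hist1h2bc (-0.28), whose call held in few alternatives. Hist1h2ae (0.97) and Hist1h2bg (0.54) form another pair. Levels differed within pairs as well, with 33.8 RPKM for Hist1h2bc and 0.633 for Hist1h2ac (103 and 4 by coding length). The difference between partners was not tested.

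Members with many copied windows had larger time differences in controls. Among the 45, 8 of 12 members with at least 50% of windows copied rose, and their median was 0.88 on the log2 scale. Of 33 with fewer copied windows 13 rose and 3 fell, and the median was 0.36. This is 66.7% and 39.4% higher, beside 16.6% of all genes tested in every comparison. Of the 5 tested members without a copied window, Hist1h1b rose, Hist1h1a fell and the others were not called. Across the 45 members Spearman's rho of the log2 fold change was 0.42 with the copied share, -0.41 with the number of bases after the stop codon, 0.33 with GC content and -0.28 with the mean level. These are descriptions over genes that share reads and libraries, and the part of multiply matched reads in the time difference was not tested.

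The length of the gene model after the stem-loop was set beside the time difference as well. In 17 members the model runs more than 300 bases past the stem-loop, and in 21 it ends within 100 bases. Of the 16 long ones among the 45, 5 rose and 1 (Hist3h2a) fell in controls, with a median of 0.31. Of the 12 short ones 7 rose and none fell, with a median of 0.64. The shares called higher were 31.2% and 58.3%, beside the same 16.6%. In LTP slices the medians were 0.14 and 0.53.

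Replication-independent histone variants, which are made outside S phase as well, were compared with the members. In controls 5 of 11 tested variants rose from 1 hr to 3 hr: H2afz (log2 fold change 0.70), H2afx (0.78), Cenpa (0.77), H1fx (0.93) and H2afj (0.34). H2afz, which encodes H2A.Z, averaged 41.1 CPM at 1 hr (SD 1.14, n = 2) and 68.0 CPM at 3 hr (SD 1.32, n = 3) in controls. The same 5 rose in LTP slices, where H1f0 fell (-0.30). The called share was 45.5% in controls and 54.5% in LTP slices, where 32.8% and 35.9% of all genes were called. LTP against control called no variant at 1 hr or 3 hr.

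Of 17 genes for the transcription, 3′ end processing and decay of histone mRNA, 1 rose and 4 fell in controls, which is 29.4% and near the 32.8% of all genes. Upf1, a helicase of histone mRNA decay, rose (log2 fold change 0.46), and the histone cleavage factor Cpsf3 (-0.38), its partner Cstf2 (-0.29), Casp8ap2 (-0.40) and the poly(A) polymerase Tent2 (-0.50) fell. In LTP slices Upf1 (0.69) and the scaffold protein gene Sympk (0.31) rose, and Npat (-0.28), Cpsf2 (-0.32), Cpsf3 (-0.27), Cstf2 (-0.29) and Casp8ap2 (-0.32) fell. This is 41.2%, where 35.9% of all genes were called. LTP against control called none of the 17 at either time.

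Histone chaperones carry histones to DNA. The called share was 25% in controls and 40% in LTP slices, against 32.8% and 35.9% of all genes. In controls Hira (0.51), Anp32e (0.38) and Rbbp4 (0.31) rose and Atrx (-0.51) and Npm1 (-0.44) fell, of 20 tested. In LTP slices Hira (0.54) and Cabin1 (0.51) rose, and Npm1 (-0.58), Atrx (-0.50), Nap1l1 (-0.39), Asf1a (-0.33), Supt16 (-0.32) and Ssrp1 (-0.27) fell. Cabin1 was the only chaperone gene called for LTP against control, at 3 hr (0.38).

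Genes of DNA replication and proliferation were examined because S phase is when the members are usually expressed. Their sum over 27 genes was 193 to 217 CPM in every group. In controls 7 of 27 were called (25.9%) and in LTP slices 5 (18.5%), below the 32.8% and 35.9% of all genes. In controls 5 rose, Cdt1 (log2 fold change 0.95), Ccnb1 (0.85), E2f1 (0.56), Mcm7 (0.53) and Fen1 (0.29), and Prim1 (-0.52) and Pola1 (-0.31) fell. In LTP slices Cdt1 (0.76), Cdc6 (0.69) and E2f1 (0.44) rose, and Ccne2 (-0.58) and Pola1 (-0.27) fell. At 3 hr LTP against control gave Rrm1 higher (0.52) and Ccne2 (-0.78), Cdt1 (-0.62) and Fen1 (-0.27) lower, which is 4 of 26 (15.4%) beside 6.6% of all genes. The levels were low for several of these, such as Cdt1, a licensing factor, with a mean of 1.29 CPM (SD 0.114, n = 2) in 1 hr controls.

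Cell type markers moved between the time points too. Of 6 microglia markers 5 were lower at 3 hr in controls and in LTP slices, with sums of 195 to 201 CPM in 1 hr controls, 172 to 196 in 1 hr LTP slices, 128 to 144 in 3 hr controls and 122 to 132 in 3 hr LTP slices. Of 6 oligodendrocyte markers 3 were higher at 3 hr in both, with sums of 5870 to 7360, 7120 to 8450, 7840 to 9500 and 7740 to 9600 CPM in the same order. The 6 progenitor and neuroblast markers summed to 66.6 to 68.5 CPM in 1 hr controls, 64.0 to 90.3 in 1 hr LTP slices, 78.7 to 83.0 in 3 hr controls and 98.7 to 102 in 3 hr LTP slices. Sox11 alone made up this difference, with means of 29.9, 40.4, 42.0 and 61.4 CPM in the same order, while the other 5 summed to between 30.3 and 44.2 CPM in every library. In controls Sox11 was called higher and Dcx lower, and in LTP slices 1 of the 6 was called, Sox11. Of 6 endothelial markers 3 were lower in controls, and 2 were higher and 1 lower in LTP slices. Of 6 oligodendrocyte precursor markers 3 were higher and 1 lower in controls, and 2 were higher and 2 lower in LTP slices. In controls at most 2 markers moved in 1 direction in the pyramidal, granule, inhibitory and astrocyte lists, and in LTP slices at most 2 did so apart from the pyramidal list, with 3 of 7 higher. Every marker was detected above 3 counts. The part of a changed cell mixture in the members' time differences was not tested.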

How the data were processed

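Total RNA of 12 libraries was sequenced with strand information after ribosomal RNA depletion. The study's methods name STAR and the GRCm38/mm10 assembly for alignment and Bioconductor packages for counting. The deposited values are the authors' raw counts per gene, in 1 table per time point. The study used reads in coding regions for its expression analysis. Of 18833 matched gene IDs that are not annotated as protein coding, 9915 had counts (4.44% of all), and whether counts of protein-coding genes are limited to coding regions is not given in the sources used here. Annotation release, use of strand and treatment of reads with several matches are not given in the sources used here. Of 41091 gene IDs 40217 matched GENCODE M21, which gave symbols, gene models and lengths.

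Counts were tested with the quasi-likelihood test of edgeR 4.0.16 (R 4.3.3) after filterByExpr and TMM scaling, with Benjamini-Hochberg adjustment over all genes, and a gene was called when its adjusted p was under 0.1 and its fold change over 1.2 (no fold minimum for the change of the LTP effect). Each time point was fitted alone for LTP against control, and 11 libraries in 1 fit for the rest. 1 hr control replicate 2 was left out, as in the study. CPM used TMM scaling, RPKM divided it by exonic length, and 0.1 CPM was added before log2 ratios within an animal were taken. Of 64 members, 38 averaged under 100 counts a library, where counting error adds to the spread between libraries. Over all genes replicates differed beyond counting error, with a chi-square per degree of freedom of 9.49 to 85.6.

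The labels tie a control and an LTP library to each animal within a time point. Deviations of paired libraries from their group means correlated across genes at -0.0149, -0.156 and 0.075 at 1 hr and 0.0385, -0.0275 and 0.218 at 3 hr. Alternatives were DESeq2 1.42.0, limma-voom (limma 3.58.1), other scalings and filters, GC and length offsets, an animal block, the inclusion of the library set aside, and the omission of each library. Scripts were tested on simulated data.

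The members, related gene lists, marker lists and tests were chosen with earlier results of these data known. Named were Hist1h4a, members called in any comparison, the 3 members of each class with the highest RPKM, called genes of the related lists, and, where fewer than 5 members were called, those with the 5 smallest p. Other members named were chosen after their values were seen. Motifs were searched in the 250 bases before RefSeq starts (GRCm38.p6).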

Additional observations from a re-analysis of the deposited data

Results flagged for a closer look

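Hist1h1a had log2 ratios of LTP to control of opposite sign at the 2 time points. Its log2 ratio of LTP to control was -0.18, -0.39 and -0.21 in the 3 animals at 1 hr and 0.33, 0.64 and 0.35 in the 3 animals at 3 hr, so that all samples moved one way at 1 hr and the other way at 3 hr. The change of the effect was 0.82 on the log2 scale and is given without a test, so a difference between the times was not shown. The 1 hr effect was not called (-0.35, adjusted p = 0.808, edgeR quasi-likelihood test). Its value ranged from -0.49, with 1 hr LTP replicate 1 omitted, to -0.19, with replicate 2 of that group omitted. The 1 hr ratio of animal 2 uses the control library that was set aside. The 3 hr values belong to the contrast by which the gene set was chosen and are a description.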

How the results depend on the processing

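The number of members called between the time points stayed within 1.5 times its main value in every alternative. With at least 2 libraries in each group it was 22 to 34 in controls and 17 to 24 in LTP slices. Over all genes the share called in these fits was 22.3 to 35.6% and 24 to 40.7%. With GC and length offsets 34 control calls were made, 27 higher and 7 lower, where 25.4% of all genes were called. Without 1 hr LTP replicate 2 the 34 were 32 higher and 2 lower, beside 33.3%. With at least 10 counts in every library 22 of 41 members were called in controls, beside 35.6% of all genes. At 1 hr LTP against control called 1 member without LTP replicate 3 (1.97% of all genes). It called 0 without LTP replicate 1 or 2 (0.527% and 0.745%) and 0 with the animal block (1.16%). LTP against control at 3 hr called 1 member at an adjusted p under 0.05 (3.53% of all genes) and 5 with DESeq2 (7.58%). Without a filter beyond 1 count it called 5 (4.53%), and with GC and length offsets 9 (8.37%). With the animal block it called 7 (2 higher and 5 lower, 9.49%), and with offsets and block together 13 (9.81%). When 1 library was left out it called 1 to 5. With 1 of the 3 control libraries or LTP replicate 1 left out the count was 1 (1.28 to 2.33% of all genes). Without LTP replicate 2 it was 4 (12.2%), and without LTP replicate 3 it was 5 (7.45%). The change of the LTP effect was called for 1 member with DESeq2 (0.312% of all genes) and 2 without a filter (0.359%). It was called for 1 without 1 hr LTP replicate 3 (0.135%) or 3 hr LTP replicate 2 (0.363%). With another LTP or 3 hr control library left out, or with the animal block (0.07%), the number was 0. Hist1h2bc changed sign with GC and length offsets, to 0.08 in controls and 0 in LTP slices. The cause was not tested for these. The block changed no call at 1 hr. Single members were followed where they were called in the main fit, with Hist1h4a and, below 5 calls, those with the 5 smallest p. Of their values 1215 kept their direction and side of the threshold, 101 lost a call, 15 gained one and 2 changed sign. Calls gained by other members are not in these numbers. A fit with 1 remaining 1 hr control assumes that it varies like the other groups. Members under the floor of 3 counts could not be assessed at this depth.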
